A study of Mus musculus with 12 samples.

Results

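The genes described here carry the cyclic AMP signal inside a cell: adenylyl cyclases, phosphodiesterases, the subunits, inhibitors and anchoring proteins of protein kinase A (PKA), the exchange factors activated by cyclic AMP, and the CREB transcription factors with their coactivators. They were chosen by a rule on the gene symbol, and 71 of the 23378 genes in the deposited table matched. Sorted by role they made 13 groups, from 10 adenylyl cyclases to 15 A-kinase anchoring proteins. Levels are given as CPM, a library's counts scaled to a common total. A filter on low counts was passed by 61 of the 71. The other 10, which were Adcy2, Adcy8, Adcy10, Akap3, Creb3l3, Creb3l4, Pde6a, Pde6g, Pde6h and Pde11a, stayed below 1 CPM in every library and were not tested. A gene that passes the filter only because 1 group is high tends to differ between groups, so counts over the 61 are descriptions.

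RNA was sequenced from cells sorted from the kidney cortex of nNosCreERT2-mTmG mice on a C57BL/6 background. In these mice a tamoxifen-inducible Cre recombinase is driven by the neuronal nitric oxide synthase gene (Nos1) and switches a membrane reporter from red tdTomato to green GFP. Green cells were collected as macula densa cells, the salt-sensing plaque where the thick ascending limb meets its own glomerulus, so every macula densa library rests on the activity of that gene and not on anatomy. The brightest red cells were collected as control cells to stand for the distal tubule and collecting duct, although the red reporter marks all cells that did not recombine. The 4 groups were macula densa cells on control diet (2 libraries), macula densa cells on low salt diet with enalapril, an inhibitor of the angiotensin-converting enzyme (2 libraries), control cells on control diet (4 libraries) and control cells on low salt diet with enalapril (4 libraries). The low salt diet with enalapril, given at 150 mg/L for 14 days, is called treatment below. Both cell populations came from mice with the same alleles. Age, sex and the number of mice behind a library are not given in the sources used here. Nothing in the labels says that replicates came from separate animals, so p-values measure the spread between these libraries.

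Cyclic AMP is made by adenylyl cyclases, which receptors stimulate through the G protein Gs and inhibit through Gi, and it is broken down by phosphodiesterases. It releases the catalytic subunits of PKA from their regulatory subunits, while anchoring proteins hold the kinase near its substrates. It also opens the exchange factors EPAC1 and EPAC2, which activate Rap GTPases, and active PKA phosphorylates CREB in the nucleus. In the kidney the pathway is known for the response of the collecting duct to vasopressin, for parathyroid hormone signalling and for renin release from the juxtaglomerular cells next to the macula densa.

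Total counts per library ran from 4259020 to 14856542, of which nuclear protein-coding genes held 781257 to 2331481. The 71 genes together held 4192 to 13434 counts per library, or 0.425% to 0.616% of the nuclear protein-coding counts. Nos1, whose gene drives the Cre, was 100.4 to 232 CPM in the 4 macula densa libraries and 0.109 to 0.734 CPM in the 8 control-cell libraries, where CPM is taken from library totals scaled by trimmed means of M values (TMM). Pappa2, a second gene of macula densa cells, was 228 to 774 against 0 to 1.22 CPM. Markers of other cell types moved with the sort. Of 8 endothelium markers, all 8 were called lower in macula densa cells over both diets, and Plvap was at 0 in both macula densa libraries under treatment. Their summed level was 153 and 21.3 CPM in macula densa replicates 1 and 2 on control diet and 12.3 and 10.3 CPM under treatment. In control-cell replicates 1 to 4 it was 1358, 1091, 727 and 46.3 CPM on control diet and 315, 796, 237 and 1083 CPM under treatment. Control-cell replicate 4 on control diet thus stood apart from its group, and it was also the lowest of 4 for the 6 podocyte markers (42.4 against 657 to 1288 CPM) and the highest for the 8 principal-cell markers (839 against 127 to 440.2 CPM). Over both diets 5 of 6 podocyte, 8 of 8 principal-cell, 4 of 6 intercalated-cell and 5 of 6 smooth muscle and renin-cell markers were called lower in macula densa cells, as were 3 of 6 leukocyte and 3 of 6 fibroblast and mesangium markers. Called higher were 4 of 6 macula densa, 4 of 7 thick ascending limb, 1 of 7 distal convoluted and connecting tubule and 2 of 8 proximal tubule markers. The proximal tubule markers summed to 139.7 and 229 CPM in macula densa cells on control diet and 46.9 and 104.0 CPM under treatment, against 39.1 to 98.4 and 27.7 to 70.7 CPM in control cells. The part of these other cells in the differences below was not tested. In bulk RNA, fewer cells of a type and less RNA per cell cannot be told apart.

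In macula densa cells most of the pathway genes that differed from control cells were lower, while a small set, led by the phosphodiesterase Pde1b and the PKA regulatory subunit Prkar1b, was higher. With both diets averaged, edgeR called 28 of the 61 tested genes at an adjusted p under 0.05, and 6 of these were higher and 22 lower than in control cells. Among all 14180 genes tested 21.3% passed, 7.48% higher and 13.9% lower. The median log2 ratio of macula densa to control cells, in which a positive value is higher in macula densa cells, over the 61 was -0.46, against -0.06 for all genes, and placing the genes that were at 0 in a group at their bound would not move it, since they lie far below it. On control diet alone 12 of 61 passed (3 higher, 9 lower), where 6.61% of all genes did (2.69% higher, 3.92% lower). Under treatment 15 of 61 passed (3 higher, 12 lower), where 7.27% of all genes did (3.15% higher, 4.13% lower). Leaving out control-cell replicate 4 of the control diet raised the counts to 25 on control diet, 20 under treatment and 32 over both, while the share of all genes called went to 17.7%, 13.5% and 28.2%. Leaving out macula densa replicates 1 and 2 in turn left 4 and 2 calls on control diet and, for the replicates of that group, 7 and 4 under treatment, with 17 over both diets without replicate 2 under treatment. The shares of all genes called in those 5 fits were 1.61%, 0.755%, 3.69%, 1.22% and 11.7%. Among control cells, 7 calls were left on control diet without replicate 3, and under treatment 9 without replicate 2 and 8 without replicate 4, where 2.94%, 4.29% and 3.68% of all genes were called. Scaling by library totals alone moved the median of all genes over both diets from -0.06 to 0.14, and the split to 11 higher and 17 lower, with 4 and 7 on control diet and 7 and 10 under treatment. The split of all genes moved the same way, to 1827 higher and 1450 lower over both diets from 1061 and 1966, to 542 and 328 from 382 and 556 on control diet, and to 736 and 392 from 446 and 585 under treatment. Where values below name no diet, those of the control diet come first and those under treatment second, each in the order of the replicates. Of the 28 calls, 13 held under every alternative that tested the gene: Adcy5, Adcy9, Akap12, Crtc3, Pakap, Pde10a, Pde1b, Pde1c, Pde3a, Pde3b, Pde8b, Rapgef3 and Rapgef4. Adcy5 and Pde1b were not tested under 1 of the alternatives, the filter at a mean of 5 CPM.

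**Figure D1:**
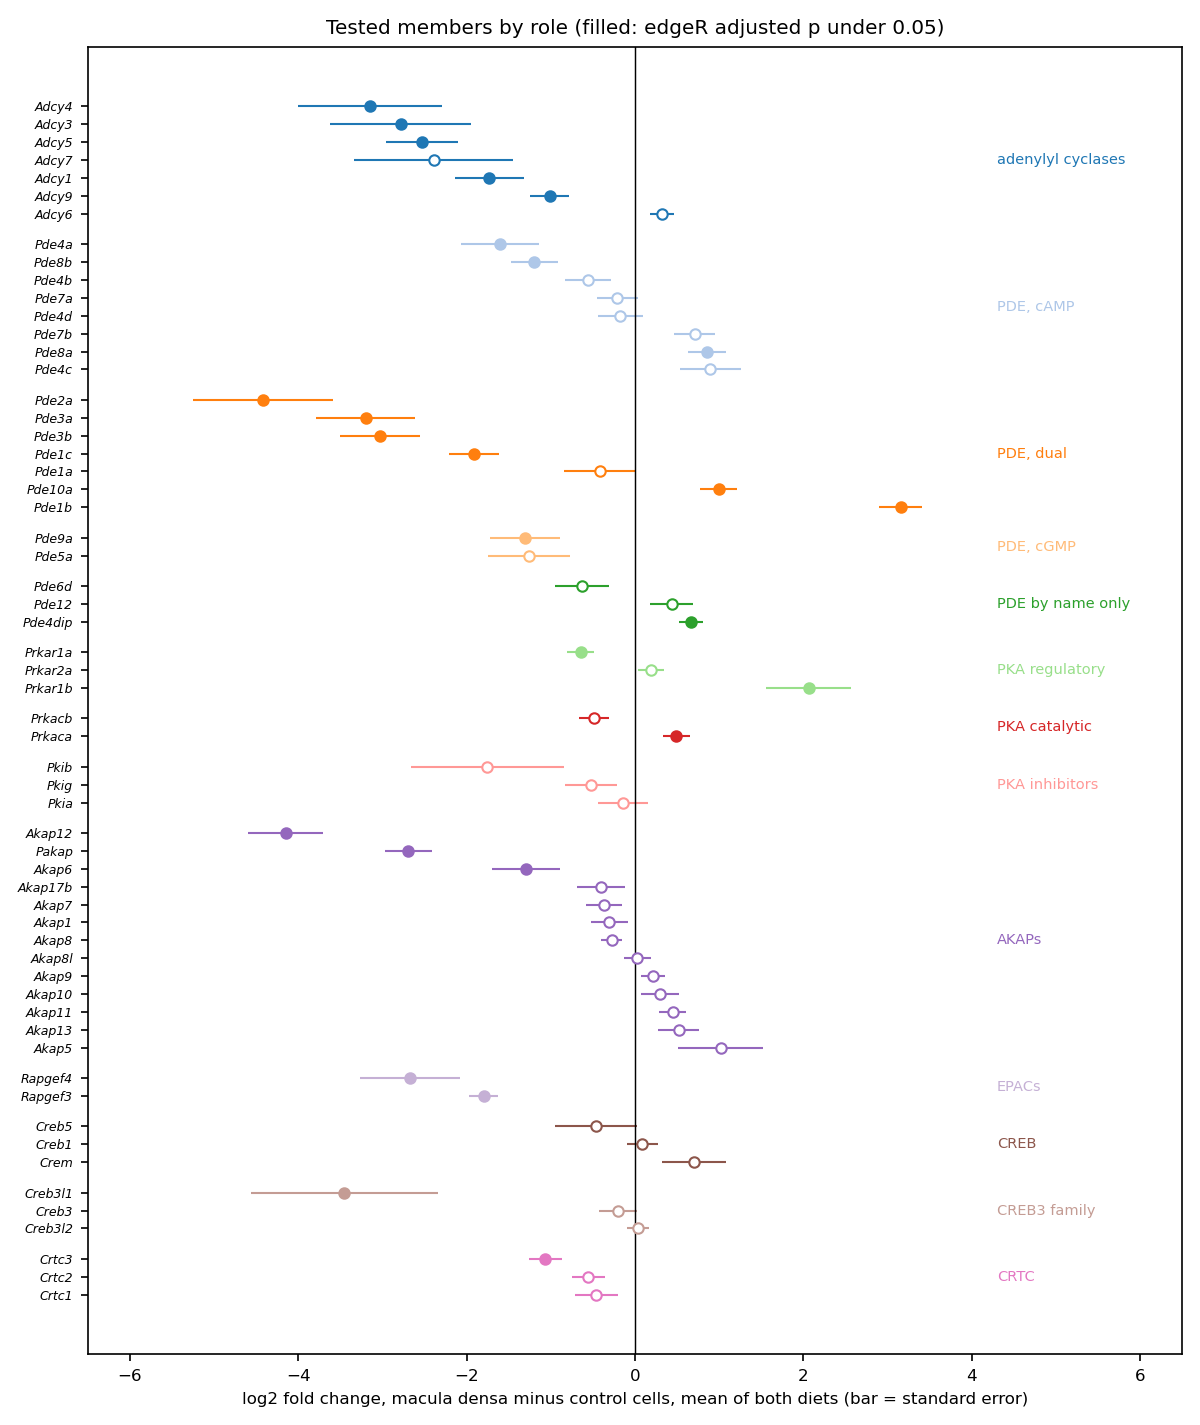
Log2 ratio (fold change) of macula densa to control cells, averaged over both diets, for tested genes in their role groups, with bars for the standard error and filled points for an edgeR adjusted p under 0.05. Akap2 and Prkar2b are left out because they were at 0 in both macula densa libraries under treatment; Pde1b at 3.16 lies farthest to the right and Pde2a at -4.41 farthest to the left.

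Promoter sequence is shown for 4 of the 6 genes called higher in macula densa cells and for the 2 genes of the pathway whose promoter holds a complete cyclic AMP response element, the palindrome TGACGTCA that CREB binds. The stretches were picked with the results known, and the windows of the other higher genes, Pde10a and Pde4dip, hold neither the element nor its core. Each stretch ends at the base before the start site of its RefSeq promoter window on GRCm38.p6 and is written 5′ to 3′ on the strand given. Those of Prkar1a and Creb5 end earlier, at the base before the next annotated exon. For Prkar1a this lies inside the annotated gene, which starts at 109649405. The Prkar1a stretch runs past the start site of an overlapping window, and its element begins 38 bases after that site. Capitals mark the complete element or its 5-base core, TGACG or CGTCA on the opposite strand, and every complete element also holds the core on both strands.
Pde1b, chr15:103502884-103503033, plus strand: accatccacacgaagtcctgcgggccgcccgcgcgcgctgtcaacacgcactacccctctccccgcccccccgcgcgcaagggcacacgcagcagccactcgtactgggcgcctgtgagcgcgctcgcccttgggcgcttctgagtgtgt
Pde8a, chr7:81213115-81213264, plus strand: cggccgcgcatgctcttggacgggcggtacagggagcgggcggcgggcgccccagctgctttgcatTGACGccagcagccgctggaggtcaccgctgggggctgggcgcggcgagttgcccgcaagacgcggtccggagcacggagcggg
Prkaca, chr8:83972828-83972977, plus strand: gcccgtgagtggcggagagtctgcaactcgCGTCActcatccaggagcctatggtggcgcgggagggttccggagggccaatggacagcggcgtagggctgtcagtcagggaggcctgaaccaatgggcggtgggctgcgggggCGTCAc
Prkar1b, chr5:139150002-139150151, minus strand: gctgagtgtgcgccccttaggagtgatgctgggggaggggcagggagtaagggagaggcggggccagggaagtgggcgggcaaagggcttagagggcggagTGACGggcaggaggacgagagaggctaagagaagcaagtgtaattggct
Prkar1a, chr11:109650799-109650920, plus strand: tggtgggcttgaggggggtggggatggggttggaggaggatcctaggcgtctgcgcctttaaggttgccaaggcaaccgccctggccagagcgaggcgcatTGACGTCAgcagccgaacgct
Creb5, chr6:53287153-53287269, plus strand: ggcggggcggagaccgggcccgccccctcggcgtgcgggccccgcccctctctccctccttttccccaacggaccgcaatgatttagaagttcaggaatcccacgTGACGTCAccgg
RefSeq windows, from 250 bases before a start site to 50 after it, were given for 57 of the 71 genes, 110 windows in all. The complete element was in 3 of the 110 (2.73%), belonging to Creb5 and Prkar1a, against 1.79% of all 32851 windows. The 5-base core was in 27 of the 110 (24.5%) against 20.8% of all windows. Counted by gene, the complete element was in 3.51% of the 57 against 2.03% of all 27025 genes with a window, and the core in 40.4% against 23.0%. A gene counts here if any of its windows holds the letters. The 57 genes had more windows per gene than all genes did, so these shares are not on equal terms. The 2 Prkar1a windows with the complete element overlap and hold the same copy of it. Of the genes with a window, the core was in 3 of 6 called higher over both diets, 7 of 16 called lower and 10 of 28 that were tested and not called. Among the stretches shown, that of Prkaca holds the core at 2 places, those of Pde8a and Prkar1b at 1 each, and that of Pde1b at none. Of the genes with the complete element, Prkar1a was lower in macula densa cells and Creb5 did not pass the test. Letters in a window are a description and not a site of binding.

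Of the 10 adenylyl cyclases, 7 were tested, and 5 of these were lower in macula densa cells over both diets (Adcy1, Adcy3, Adcy4, Adcy5 and Adcy9) and none was higher. Among all genes tested 13.9% were called lower and 7.48% higher in that comparison. Adcy6, a cyclase inhibited by calcium, was the most abundant per length in every group. It measured 57.1 and 70.5 CPM in the macula densa libraries on control diet and 58.0 and 71.8 CPM under treatment, against 51.4, 54.9, 66.7 and 59.4, then 48.6, 40.2, 41.8 and 51.5 CPM in control cells. The groups overlapped, and the log2 ratio over both diets was 0.32, with standard error 0.14 and edgeR adjusted p 0.126. With library totals alone it was 0.52, with an edgeR adjusted p of 0.0315. By shares, Adcy6 made up 77.4% and 85.4% of the summed cyclase level per kilobase of exon in macula densa cells on the 2 diets, and 56.2% and 53.0% in control cells. Single libraries ran from 72.7% to 86.5% in macula densa cells and from 41.2% to 70.2% in control cells.

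Adcy5, the close relative of Adcy6 that calcium also inhibits, measured 1.54 and 0.652, then 0.766 and 1.15 CPM in the macula densa pairs, and 5.90, 5.07, 7.24 and 6.10 CPM on control diet and 2.31, 9.55, 3.99 and 7.73 CPM under treatment in control cells. No macula densa library reached the lowest control-cell library, and the log2 ratio of -2.52 (standard error 0.43, edgeR adjusted p 0.00202) was the one cyclase call that also passed on each diet alone. The calcium-stimulated cyclase Adcy1 measured 6.87 and 8.88, then 4.21 and 2.95 CPM in macula densa cells, and 23.5, 20.1, 15.05 and 4.44, then 10.6, 22.0, 27.9 and 18.7 CPM in control cells. Its lowest control-cell value was in replicate 4 on control diet, the library low in endothelium and podocyte markers, and lay among the macula densa values. The log2 ratio of Adcy1 was -1.73 (standard error 0.41, edgeR adjusted p 0.0116). Adcy9, which responds little to forskolin, ran from 4.41 to 9.75 CPM in macula densa cells and from 9.45 to 17.5 CPM in control cells, a log2 ratio of -1.01 (standard error 0.23, edgeR adjusted p 0.00901). Adcy4 was 2.36 and 0.163 CPM in macula densa replicates 1 and 2 on control diet and held 2 and 3 counts in those under treatment. In control-cell replicates 1 to 4 it was 13.7, 12.5, 9.33 and 0.930 CPM on control diet and 2.84, 6.37, 1.47 and 8.34 CPM under treatment. Its order over replicates was that of the summed endothelium markers in each group except macula densa cells under treatment. On control diet the podocyte markers had that order too, and the part of either cell type was not tested. Adcy3 reached at most 2.69 CPM in any library, and its exons overlap those of Cenpo on the other strand. Adcy7 had a log2 ratio of -2.39 at edgeR adjusted p 0.0915. Calls of this family rested on few libraries: Adcy1 was lost without macula densa replicate 2 under treatment (edgeR adjusted p 0.0602), Adcy4 without any 1 of 3 macula densa libraries (all but replicate 1 on control diet; up to 0.0849) and Adcy3 without any 1 of 7 libraries (up to 0.0999). The log2 ratio of Adcy4 became -4.54 when macula densa replicate 1 of the control diet was left out, and that of Adcy3 became -4.43 when replicate 2 was.

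**Figure D2:**
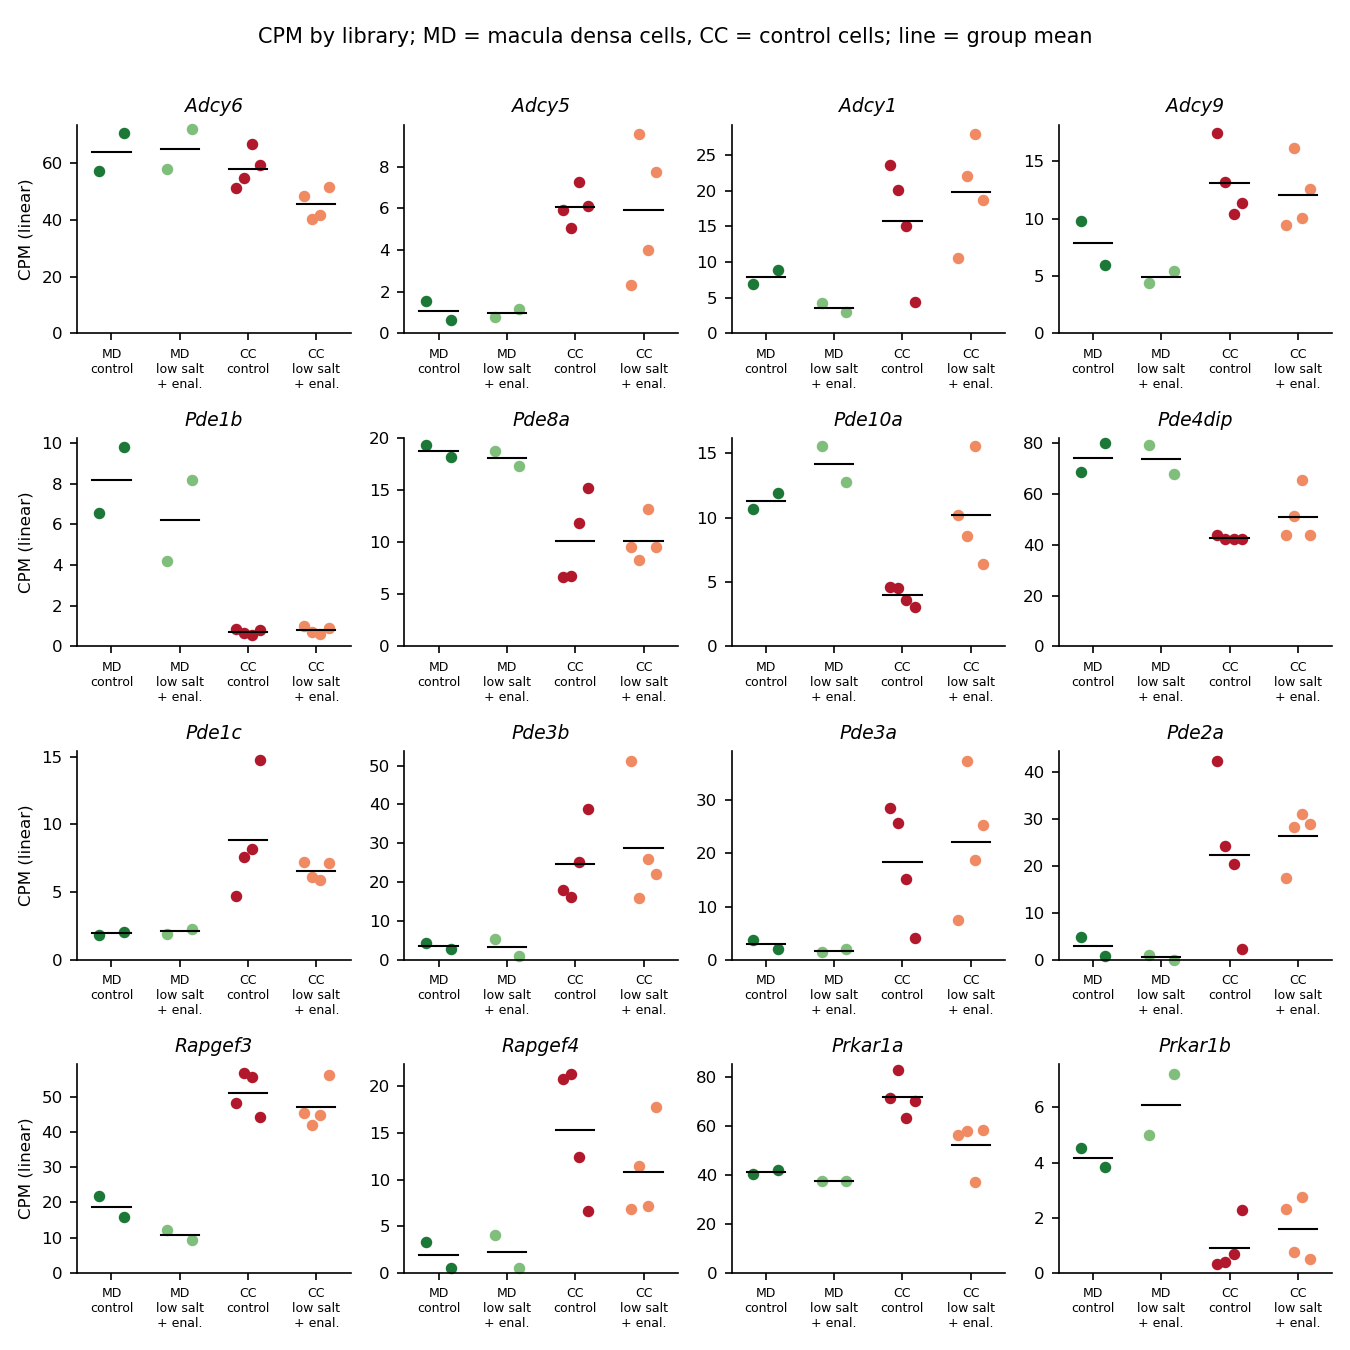
CPM of 16 genes in each library on linear axes that start at 0, with 1 point per library and a line at the group mean; MD stands for macula densa cells, CC for control cells and enal. for enalapril. Pde1b separates the 4 macula densa libraries (4.21 to 9.77 CPM) from the 8 control-cell libraries (0.571 to 0.999 CPM), while Adcy6 overlaps between them.

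Phosphodiesterases were called in both directions. Among the 17 cyclic nucleotide phosphodiesterases tested, Pde1b, Pde8a and Pde10a were called higher in macula densa cells over both diets, and Pde1c, Pde2a, Pde3a, Pde3b, Pde4a, Pde8b and Pde9a lower. By substrate, 6 of the 7 tested that take both cyclic AMP and cyclic GMP were called (2 higher, 4 lower), 3 of 8 that take cyclic AMP (1 higher, 2 lower), and 1 of 2 that take cyclic GMP (lower). The share of all genes called in that comparison was 21.3% (7.48% higher, 13.9% lower). Pde1b, on chromosome 15 from 103503034 to 103530052, encodes an enzyme that calcium and calmodulin activate. It measured 6.57 and 9.77 CPM in the macula densa libraries on control diet and 4.21 and 8.20 CPM under treatment. In control cells it was 0.875, 0.658, 0.571 and 0.826, then 0.999, 0.734, 0.630 and 0.915 CPM. All 4 macula densa libraries lay above all 8 control-cell libraries, and the log2 ratio was 3.16 with standard error 0.26 (8.92-fold; edgeR adjusted p 1.85e-05), the smallest adjusted p among the 61 genes. It passed on each diet alone, at 3.46 on control diet and 2.85 under treatment. Pde1b averaged under 5 CPM over all libraries, below the level set for giving every library, and was picked for this after its values were seen.

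The 3 members of the calcium-activated PDE1 family differed from each other. Pde1c measured 1.85 and 2.04, then 1.92 and 2.30 CPM in the macula densa pairs, against 4.70, 7.61, 8.19 and 14.8, then 7.22, 6.12, 5.88 and 7.12 CPM in control cells. Here every macula densa library lay below every control-cell library, with a log2 ratio of -1.91 (standard error 0.30, edgeR adjusted p 0.00123). Pde1a overlapped, at 3.64 to 14.0 CPM in macula densa cells and 5.90 to 30.6 CPM in control cells, with a log2 ratio of -0.42 and edgeR adjusted p 0.535. Among the enzymes that prefer cyclic AMP, the related genes Pde8a and Pde8b also went apart. Pde8a, on chromosome 7 from 81213596 to 81334533, measured 19.4 and 18.2, then 18.8 and 17.4 CPM in macula densa cells, and 6.67, 6.76, 11.9 and 15.2, then 9.53, 8.32, 13.2 and 9.56 CPM in control cells. The ranges did not overlap, although control-cell replicate 4 on control diet came near, and the log2 ratio was 0.86 (standard error 0.23, edgeR adjusted p 0.0187). Pde8b measured 2.26 and 2.77, then 3.64 and 6.40 CPM in macula densa cells, and 6.23, 9.68, 9.43 and 15.5, then 5.69, 6.86, 5.04 and 8.54 CPM in control cells. Its low values were those of macula densa cells on control diet, and the log2 ratio over both diets was -1.19 (standard error 0.28, edgeR adjusted p 0.0105). The call of Pde8a was lost when any 1 of the 4 macula densa libraries was left out (edgeR adjusted p 0.0643 to 0.0781).

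Pde10a, which takes both nucleotides, measured 10.7 and 11.9, then 15.5 and 12.8 CPM in the macula densa pairs, and 4.59, 4.51, 3.62 and 3.10 CPM in control cells on control diet. Under treatment the control cells measured 10.2, 8.57, 15.5 and 6.41 CPM, so the groups separated on control diet (log2 ratio 1.51, standard error 0.31, edgeR adjusted p 0.0149) and overlapped on the other diet (0.48, edgeR adjusted p 0.357). Over both diets the value was 0.997 (standard error 0.22, edgeR adjusted p 0.0079). Pde7b, which is specific for cyclic AMP, passed under treatment only, at 12.8 and 17.4 CPM in macula densa cells and 8.53, 5.14, 5.46 and 6.20 CPM in control cells (log2 ratio 1.23, standard error 0.34, edgeR adjusted p 0.0462), and the test of the difference between diet effects gave an edgeR adjusted p of 0.718. Pde4c, of the rolipram-sensitive PDE4 family, measured 11.5 to 24.8 CPM in macula densa cells and 4.05 to 16.4 CPM in control cells. Its log2 ratio was 0.90 at edgeR adjusted p 0.0978. With library totals alone, Pde4c and Pde7b were both called over both diets, with edgeR adjusted p values of 0.0262 and 0.0182. Pde4b and Pde4d had adjusted p-values of 0.17 and 0.693 in edgeR.

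The most negative log2 ratios among the phosphodiesterases were those of the cyclic GMP-stimulated Pde2a and the cyclic GMP-inhibited pair Pde3a and Pde3b. Pde3b measured 4.21 and 2.61, then 5.36 and 0.984 CPM in the macula densa pairs, and 17.8, 16.3, 25.1 and 38.8, then 51.2, 15.9, 26.0 and 22.0 CPM in control cells. Every control-cell library was above every macula densa library, with a log2 ratio of -3.03 (standard error 0.47, 8.18-fold, edgeR adjusted p 0.00123). Control-cell replicate 4 on control diet, which was low in endothelium markers, had the highest Pde3b and the highest Pde1c of its group. Pde3a and Pde2a showed the opposite order among control cells. Pde3a measured 3.69 and 2.04, then 1.34 and 1.97 CPM in macula densa cells, and 28.5, 25.7, 15.2 and 4.03, then 7.38, 37.5, 18.7 and 25.3 CPM in control cells, with a log2 ratio of -3.20 (standard error 0.59, edgeR adjusted p 0.00337). Pde2a measured 4.82 and 0.815, then 0.958 and 0 CPM in macula densa cells, and 42.2, 24.2, 20.3 and 2.27, then 17.4, 28.2, 30.9 and 28.9 CPM in control cells, with a log2 ratio of -4.41 (standard error 0.83, edgeR adjusted p 0.00374). In both genes replicate 4 on control diet was the lowest control-cell library of the 8, and for Pde2a it lay within the macula densa range. Part of the Pde2a count is uncertain because Gm45837 overlaps its exons on the same strand, and Gm28523 overlaps Pde3a on the other strand. The fitted values depended on single macula densa libraries: without macula densa replicate 1 under treatment they were -6.92 for Pde2a and -3.87 for Pde3b, and without replicate 1 on control diet Pde2a was -5.28. Each library left out here was the higher of its pair for the gene named.

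The remaining calls among phosphodiesterases were at low levels. Pde4a ran from 0.492 to 2.11 CPM in macula densa cells and from 2.31 to 6.86 CPM in control cells, with a log2 ratio of -1.60 (standard error 0.46, edgeR adjusted p 0.0286). Pde9a, specific for cyclic GMP, ran from 0.616 to 2.20 CPM and from 1.31 to 3.97 CPM, with a log2 ratio of -1.30 (standard error 0.42, edgeR adjusted p 0.0428). Pde5a, the cyclic GMP enzyme that sildenafil inhibits, had -1.26 and edgeR adjusted p 0.0892. Leaving out any 1 of 5 libraries ended the call of Pde4a (edgeR adjusted p up to 0.116) and any 1 of 8 that of Pde9a (up to 0.158). Without macula densa replicate 1 under treatment the log2 ratio of Pde4a was -2.27, and without macula densa replicate 2 on control diet that of Pde9a was -1.89. The photoreceptor genes Pde6a, Pde6g and Pde6h stayed at or below 0.564 CPM in every library, near the level of 3 counts, which was 0.231 to 0.734 CPM depending on the library.

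Seen as shares of the summed phosphodiesterase level per kilobase of exon, the order of the enzymes differed between the sorted cells. Pde8a held 26.3% on control diet and 27.5% under treatment in macula densa cells, against 11.3% and 10.7% in control cells. Pde4c held 21.7% and 14.5% against 6.39% and 7.82%. By group means they ranked first and second in macula densa cells on each diet. In control cells the largest mean share was that of Pde2a, at 17.0% and 18.4%, but single libraries ran from 1.53% in replicate 4 to 30.8% on control diet. Pde3b followed at 12.1% and 13.4%, against 2.14% and 2.25% in macula densa cells. Pde1b held 8.50% and 6.89% in macula densa cells and 0.620% and 0.654% in control cells. The whole family summed to 17.7 and 16.4 CPM per kilobase in macula densa cells and to 21.8 and 23.4 in control cells.

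**Figure D3:**
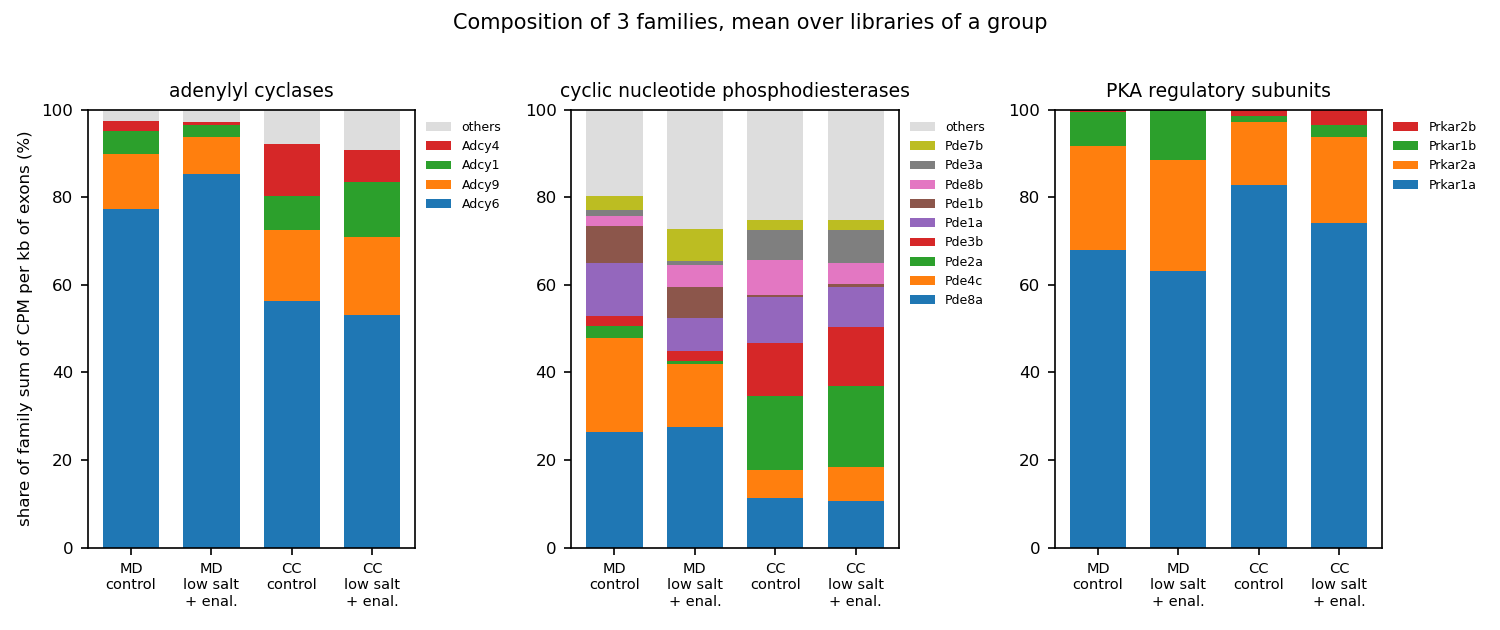
Share of each gene in the summed level of its family (CPM per kilobase of merged exons), as the mean over the libraries of a group, for adenylyl cyclases, cyclic nucleotide phosphodiesterases and PKA regulatory subunits. Adcy6 fills 77.4% of the cyclase bar of macula densa cells on control diet and 56.2% of that of control cells, and on that diet Prkar1b takes 1.21% of the regulatory subunits in control cells and 7.80% in macula densa cells.

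Of 3 genes named as phosphodiesterases that encode other proteins, Pde4dip (myomegalin, a scaffold of the Golgi and centrosome) was higher in macula densa cells. It measured 68.5 and 80.0, then 79.1 and 67.9 CPM in the macula densa pairs, and 44.0, 42.2, 42.1 and 42.3, then 43.7, 51.2, 65.5 and 43.7 CPM in control cells. The ranges did not overlap, and the log2 ratio was 0.66 (standard error 0.14, edgeR adjusted p 0.0074), or 0.0525 without macula densa replicate 2 on control diet. Pde6d, a chaperone of prenylated proteins, had -0.63 (edgeR adjusted p 0.191), and Pde12, a mitochondrial nuclease, had 0.44 (edgeR adjusted p 0.25).

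The subunits of PKA differed by isoform. Of the 4 regulatory subunit genes, Prkar1b was higher and Prkar1a and Prkar2b were lower in macula densa cells over both diets. The shares of all genes called there were 7.48% higher and 13.9% lower. Prkar1a, the RIα subunit found in most cells, on chromosome 11 from 109649405 to 109669656, measured 40.5 and 42.1, then 37.4 and 37.6 CPM in the macula densa pairs. In control cells it was 71.6, 82.9, 63.2 and 70.3 CPM on control diet and 56.3, 58.0, 37.0 and 58.3 CPM under treatment, where only replicate 3 came down to the macula densa level. The log2 ratio was -0.64 (standard error 0.16, edgeR adjusted p 0.0139), and -0.46 with an edgeR adjusted p of 0.117 when scaled by library totals alone. Prkar1b, the RIβ subunit best known from neurons, was given in every library after its values were seen: 4.51 and 3.83, then 4.98 and 7.22 CPM in macula densa cells, and 0.328, 0.376, 0.667 and 2.27, then 2.31, 0.734, 2.73 and 0.509 CPM in control cells. All macula densa libraries were above all control-cell libraries, with a log2 ratio of 2.06 (standard error 0.50, 4.18-fold, edgeR adjusted p 0.0129). Its exons overlap those of Gm15672 on the same strand, so part of its count is uncertain. Prkar1b made up 7.80% and 11.5% of the regulatory subunits per length in macula densa cells, and 1.21% and 2.67% in control cells. Prkar2a overlapped, at 18.4 to 26.7 CPM and 17.1 to 25.0 CPM (edgeR adjusted p 0.416). Prkar2b, the RIIβ subunit, measured 0.308 and 0.244 CPM in macula densa cells and 1.42, 0.376, 1.52 and 0.930 CPM in control cells on control diet. It had 0 counts in both macula densa libraries under treatment and 3.54, 2.45, 1.05 and 1.42 CPM in control cells on that diet, at least 3.96-fold lower when the macula densa libraries are set at 3 counts each. Without macula densa replicate 2 under treatment the adjusted p of Prkar1b in edgeR was 0.0628, and that of Prkar1a ran from 0.0508 to 0.0576 without any 1 of 3 macula densa libraries (all but replicate 1 under treatment).

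Of the 2 catalytic subunit genes, Prkaca was higher in macula densa cells under treatment. It measured 11.8 and 10.4, then 14.2 and 18.5 CPM in macula densa cells, and 8.64, 10.1, 12.3 and 13.4, then 8.07, 8.81, 7.14 and 8.95 CPM in control cells. The groups overlapped on control diet (-0.0029, edgeR adjusted p 0.997) and separated under treatment, with a log2 ratio of 0.99 (standard error 0.23, edgeR adjusted p 0.026). Over both diets the value of 0.49 passed narrowly (edgeR adjusted p 0.0483), and it no longer did without any 1 of the 12 libraries except control-cell replicate 4 on control diet, at 0.0554 to 0.203. The difference between the diet effects of Prkaca had an edgeR adjusted p of 0.635. Prkacb measured 8.86 to 15.3 CPM in macula densa and 14.5 to 22.4 CPM in control cells (-0.49, edgeR adjusted p 0.0773). By length Prkaca held 72.9% and 82.3% of the catalytic subunits in macula densa cells and 66.8% and 62.0% in control cells. The genes of the heat-stable PKA inhibitors, Pkia, Pkib and Pkig, gave no call, with adjusted p-values in edgeR of 0.776, 0.198 and 0.262.

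Among the 15 anchoring protein genes 14 were tested, and Akap2, Akap6, Akap12 and Pakap were lower in macula densa cells over both diets while none was higher. The calls made up 28.6% of the 14, against 21.3% of all genes tested (7.48% higher, 13.9% lower). Akap2 and Pakap overlap each other and are taken up below. Akap12 encodes gravin, a scaffold that ties PKA to the beta-adrenergic receptor. It measured 13.2 and 3.67, then 3.07 and 1.48 CPM in the macula densa pairs, and 96.7, 80.0, 64.2 and 34.7, then 109.9, 55.8, 103 and 78.7 CPM in control cells. Every macula densa library lay below every control-cell library, with a log2 ratio of -4.15 (standard error 0.45, 17.7-fold, edgeR adjusted p 0.000109). Its highest macula densa value was in replicate 1 on control diet, the macula densa library with the most endothelium and podocyte marker, and without that library the log2 ratio was -4.76. Akap8l, Akap13 and Akap9, the anchoring protein genes with the highest level per kilobase of exon over the 4 macula densa libraries, gave no call. Akap8l, a nuclear relative of Akap8, measured 30.5 to 36.4 CPM in macula densa and 22.9 to 39.1 CPM in control cells (0.03, edgeR adjusted p 0.924). Akap9, which sits at the Golgi and centrosome, measured 112 to 134 CPM in macula densa and 88.9 to 121 CPM in control cells (0.21, edgeR adjusted p 0.303). Akap13 measured 88.6 to 173 CPM and 34.9 to 116 CPM (0.52, edgeR adjusted p 0.154), and Akap11, which binds RI subunits, 33.2 to 58.6 CPM and 24.7 to 39.5 CPM (0.45, edgeR adjusted p 0.0664). With library totals alone Akap9 and Akap11 were called higher, with edgeR adjusted p values of 0.041 and 0.0175. Akap6, a scaffold of the nuclear envelope, had -1.30 (edgeR adjusted p 0.0392), a call lost without any 1 of 9 libraries (up to 0.157).

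Akap2 (chromosome 4, 57717657 to 57896984) and Pakap (chromosome 4, 57568179 to 57896982) overlap on 1 strand, with nearly all of Akap2 inside Pakap, so how reads were divided between them depends on the counting. Akap2 measured 8.51 and 5.78 CPM in macula densa cells on control diet and had 0 counts in both libraries under treatment. In control cells it was 33.8, 42.8, 34.9 and 17.98, then 15.3, 34.8, 8.19 and 35.4 CPM. With the libraries at 0 set to 3 counts each, Akap2 in macula densa cells under treatment was at least 43.9-fold lower than in control cells on that diet and at least 13.4-fold lower than in macula densa cells on control diet. Pakap did not drop to 0: it measured 5.13 and 2.36, then 4.60 and 4.59 CPM in macula densa cells, and 41.4, 33.7, 29.4 and 20.04, then 26.1, 16.2, 22.9 and 26.4 CPM in control cells. The sum of the 2 genes does not depend on how reads were divided between them, though it does depend on reads divided with Palm2, which shares exon bases with Pakap on the same strand. It was 13.6 and 8.15, then 4.60 and 4.59 CPM in the macula densa pairs, and 75.2, 76.6, 64.3 and 38.0, then 41.3, 50.9, 31.1 and 61.8 CPM in control cells. For the sum, the log2 ratio over both diets was -2.94 with standard error 0.28 and edgeR adjusted p 4.95e-05, and its 2 diets gave -2.55 (0.00302) and -3.33 (0.00103). Within macula densa cells the log2 ratio of the sum under treatment to that on control diet was -1.24 (standard error 0.42, edgeR adjusted p 0.324), which did not pass. On control diet the edgeR adjusted p of the sum was 0.0713 without macula densa replicate 2.

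**Figure D4:**
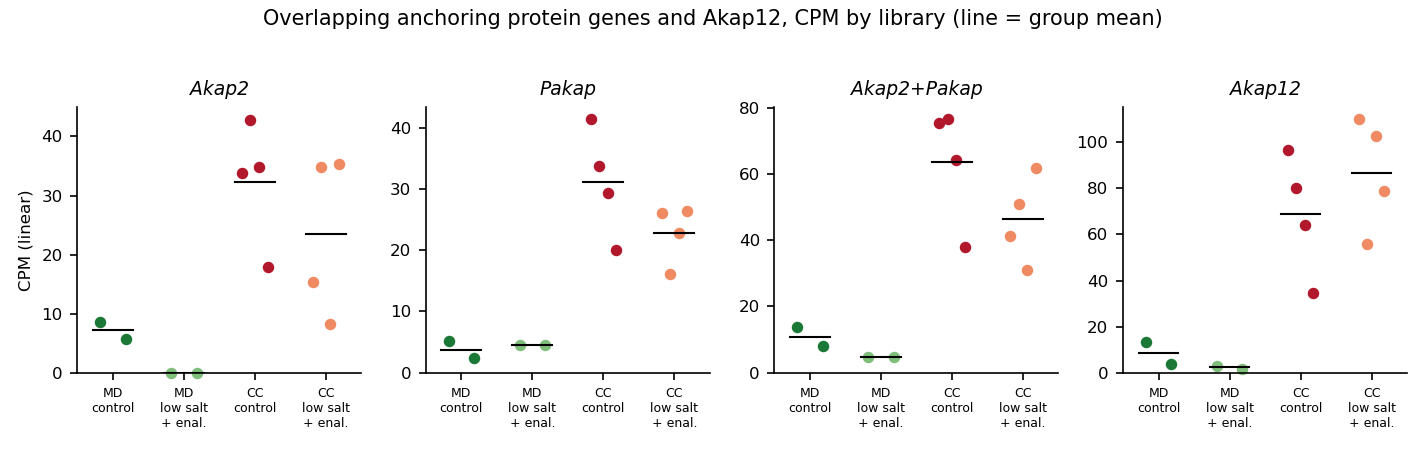
CPM of Akap2, Pakap, their sum and Akap12 by library, on linear axes that start at 0, with 1 point per library and a line at the group mean (MD macula densa cells, CC control cells). Akap2 sits at 0 in both macula densa libraries under treatment while Pakap stays near 4.60 CPM there, and the sum is lower in all 4 macula densa libraries than in any control-cell library.

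Both exchange factor genes were lower in macula densa cells over both diets, where 13.9% of all genes tested were called lower. Rapgef3, which encodes EPAC1 and lies on chromosome 15 from 97744770 to 97767972, measured 21.7 and 15.7 CPM in macula densa cells on control diet and 12.3 and 9.19 CPM under treatment. Control cells held 48.1, 56.8, 55.5 and 44.3, then 45.5, 41.9, 44.9 and 56.1 CPM, with replicate 4 on control diet well above the macula densa range. The log2 ratio was -1.79 (standard error 0.17, 3.47-fold, edgeR adjusted p 5e-05), with -1.45 on control diet and -2.14 under treatment, both of which passed. Rapgef4, which encodes EPAC2, measured 3.28 and 0.489, then 4.02 and 0.492 CPM in the macula densa pairs, and 20.8, 21.3, 12.4 and 6.61, then 6.84, 11.5, 7.14 and 17.8 CPM in control cells, a log2 ratio of -2.67 (standard error 0.60, edgeR adjusted p 0.00867). The ranges of neither gene overlapped. Per kilobase of exon the pair summed to 3.24 and 2.03 CPM in macula densa cells and to 10.4 and 9.06 CPM in control cells. Annotated antisense genes overlap exons of both. The log2 ratio of Rapgef4 moved to -3.61 when macula densa replicate 1 of the control diet was left out, and to -3.73 when replicate 1 of the treatment was.

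The transcription factors at the end of the pathway were called at about the share of all genes, 21.3% over both diets. Calls were none of 3 CREB genes, 1 of 3 coactivators and 1 of 3 tested CREB3 genes. Creb1 measured 13.2 to 23.6 CPM in macula densa and 13.8 to 25.1 CPM in control cells, with a log2 ratio of 0.09 and edgeR adjusted p 0.778. Crem, whose product ICER represses cyclic AMP responses, had 0.70 (edgeR adjusted p 0.22), and Creb5 had -0.46 (edgeR adjusted p 0.546). Of the 3 coactivators, which SIK kinases keep out of the nucleus, Crtc3 was lower: it measured 3.90 and 4.48, then 5.17 and 5.74 CPM in macula densa cells, and 10.4, 9.58, 11.8 and 7.34, then 7.45, 12.7, 10.9 and 10.4 CPM in control cells. No macula densa library reached the control-cell range, and the log2 ratio was -1.06 (standard error 0.20, edgeR adjusted p 0.00358). Crtc2 and Crtc1 had -0.55 (edgeR adjusted p 0.0605) and -0.46 (edgeR adjusted p 0.225). The CREB3 family are membrane-bound factors of the endoplasmic reticulum that share the name. Of these Creb3l1 was called lower, at most 0.575 CPM in macula densa cells and 0.103 to 3.26 CPM in control cells. Its log2 ratio was -3.45 (edgeR adjusted p 0.044), a call lost without any 1 of 9 libraries (up to 0.148) and a value of -5.61 without macula densa replicate 1 under treatment and -4.90 without its control-diet counterpart, replicate 1.

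In control-cell replicate 4 on control diet, endothelium markers summed to 46.3 CPM against 727 to 1358 CPM in the rest of its group. It was also the highest of that group for other markers. Those of the thick ascending limb summed to 1615 CPM against 208 to 1023 CPM. Distal convoluted and connecting tubule markers were 821 against 102 to 241 CPM, and intercalated-cell markers 349.5 against 21.9 to 116.6 CPM. Podocyte markers were low there as well, at 42.4 against 657 to 1288 CPM. This library thus differs in more than endothelium. On control diet the endothelium and podocyte markers had the same order within each cell population, and the part of each cell type was not tested. Of the 8 plotted genes, 6 were lowest of that group in replicate 4, and Pde1c and Pde3b were highest. Pde2a at 2.27 CPM and Adcy4 at 0.930 CPM lay within the macula densa range there. The other 6 were above every macula densa library. Pde3a was 4.03 CPM against at most 3.69 CPM in macula densa cells, and Rapgef4 6.61 against at most 4.02 CPM. Rapgef3 was 44.3 CPM against at most 21.7 CPM, and Akap12 34.7 against at most 13.2 CPM. Pde1c was 14.8 against at most 2.30 CPM, and Pde3b 38.8 against at most 5.36 CPM. Macula densa replicate 1 on control diet held 153 CPM of endothelium markers against 21.3 CPM in replicate 2, and 146 against 20.9 CPM of podocyte markers. Its Pde2a (4.82 against 0.815 CPM) and Adcy4 (2.36 against 0.163 CPM) were higher too. These 8 genes were picked for the plot after their values were seen.

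**Figure D5:**
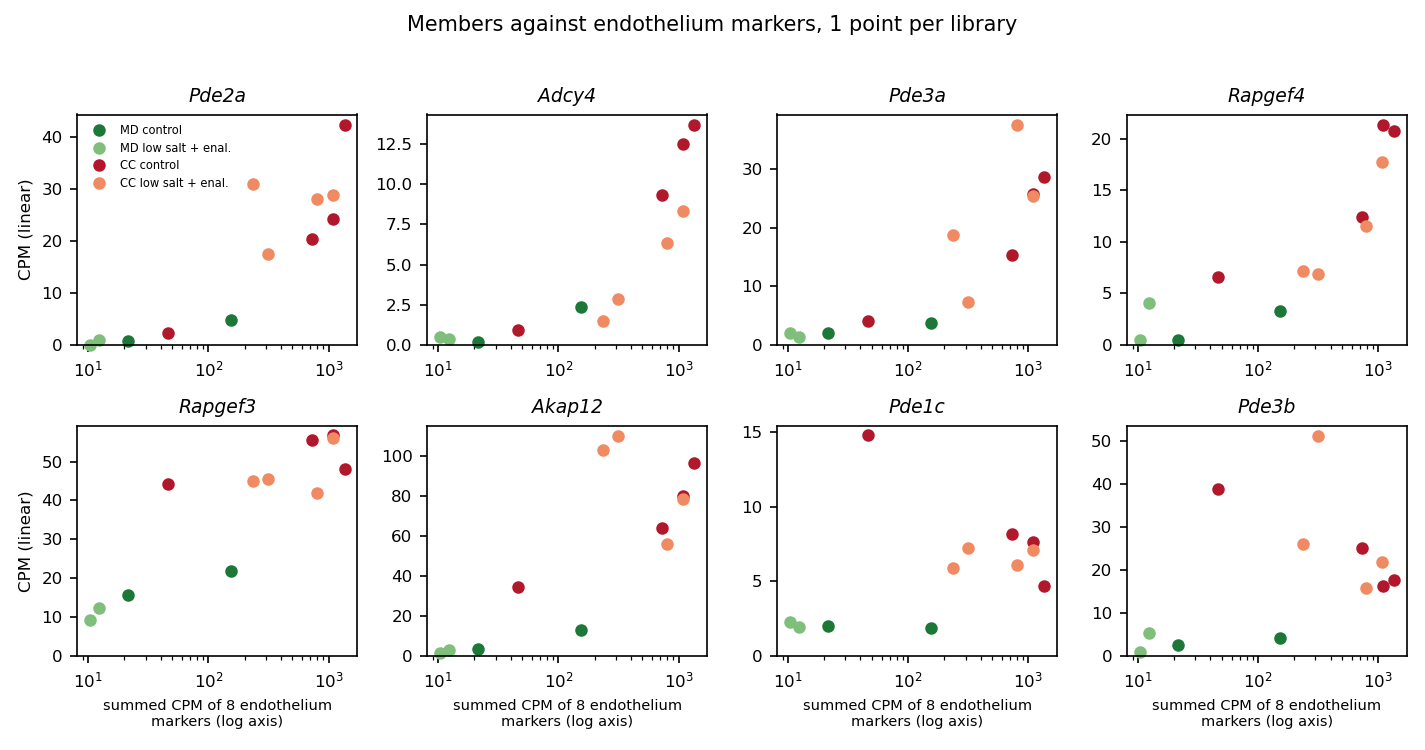
CPM of 8 genes called lower in macula densa cells (linear axis) against the summed CPM of 8 endothelium markers (log axis), with 1 point per library coloured by group (MD macula densa cells, CC control cells). Adcy4 and Rapgef4 rise from left to right across groups, while Pde1c is highest and Pde3b second highest in the control-cell library with the fewest endothelium markers, at 46.3 CPM.

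The comparison of diets asked whether salt restriction with enalapril changes the pathway. No gene of the 61 passed in macula densa cells, where 0% of all genes did. In edgeR 10 of the 61 had an unadjusted p under 0.05, against 11.2% of all genes, and DESeq2 called 1 (Akap2) and limma voom 0. Of all 14180 genes DESeq2 called 93 and limma voom 4. The smallest p-values were those of Akap2, whose 0 counts are described above (edgeR adjusted p 0.208), Pde12 and Rapgef3. Pde12 went from 3.69 and 3.42 CPM in the macula densa pair on control diet to 6.32 and 14.9 CPM, and its exons overlap Arf4 on the other strand (log2 ratio 1.58, standard error 0.42, edgeR adjusted p 0.248). Without macula densa replicate 2 under treatment the ratio of Pde12 was 0.77. Rapgef3 went from 21.7 and 15.7 CPM to 12.3 and 9.19 CPM (-0.81, standard error 0.26, edgeR adjusted p 0.321). For both genes the 2 diets did not overlap in macula densa cells. Both were picked for small p-values in this comparison, and 2 libraries often separate from 2 others by chance. The separation therefore adds nothing to the test. With any 1 of the 12 libraries left out, edgeR again called none of the 61.

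In control cells no gene of the 61 passed between the diets, where 0.00705% of all genes did, which is 1 gene of 14180. An unadjusted p under 0.05 was reached in edgeR by 5 of the 61, against 6.45% of all genes. Pde10a had the smallest p: it measured 4.59, 4.51, 3.62 and 3.10 CPM on control diet and 10.2, 8.57, 15.5 and 6.41 CPM under treatment. All 4 treated libraries were above all 4 on control diet, with a log2 ratio of 1.35, standard error 0.27 and edgeR adjusted p 0.317. It was the 1 gene of the pathway that DESeq2 called here (adjusted p 0.00632), and limma voom called 0, where they called 74 and 1 of all genes. Creb5 measured 1.53, 1.69, 0.952 and 0.826, then 2.61, 4.65, 7.56 and 0.915 CPM (1.59, standard error 0.55, edgeR adjusted p 0.67), with replicate 4 under treatment at the level of control diet. Prkar1a measured 71.6, 82.9, 63.2 and 70.3, then 56.3, 58.0, 37.0 and 58.3 CPM (-0.46, standard error 0.18, edgeR adjusted p 0.694). As a check of the treatment, the renin gene Ren1 was 5.58, 1.88, 6.19 and 4.44 CPM in control cells on control diet and 42.7, 135, 66.4 and 92.6 CPM under treatment.

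The difference of the diet effects between the sorted cells was called for 0 of the 61 genes, where 0% of all genes passed. In edgeR 9 of the 61 had an unadjusted p under 0.05, against 7.03% of all genes. DESeq2 called 1 (Akap2) and limma voom 0, and of all genes 13 and 0. After Akap2 (edgeR adjusted p 0.5) the smallest p-values were those of Pde12 (1.59, standard error 0.52, edgeR adjusted p 0.633) and Pde8b (1.63, standard error 0.54, edgeR adjusted p 0.633). Without macula densa replicate 2 under treatment the Pde12 difference was 0.77. Pde8b was higher under treatment in both macula densa libraries (3.64 and 6.40 CPM against 2.26 and 2.77 CPM) and tended lower in control cells, where the diets overlapped.

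Genes that feed the pathway but fall outside the symbol rule were read from fixed lists, over both diets. Of all genes tested, 7.48% were called higher and 13.9% lower in that comparison. Of 29 receptors and receptor-modifying genes coupled to Gs or Gi, 20 were tested, with 5 called higher and 9 called lower in macula densa cells. Higher were the calcium-sensing receptor Casr, the parathyroid hormone receptor Pth1r, the prostaglandin receptor Ptger3, the glucagon receptor Gcgr and Ramp3. Casr measured 158 and 182, then 147 and 183 CPM in the macula densa pairs, and 6.12, 10.5, 37.9 and 59.0, then 21.8, 20.3, 27.3 and 19.8 CPM in control cells (log2 ratio 2.73, standard error 0.44, edgeR adjusted p 0.00144). Pth1r, which couples to Gs, measured 92.0 and 85.5, then 203 and 167 CPM against 36.0, 30.7, 36.5 and 19.7, then 45.7, 40.6, 37.8 and 35.4 CPM (1.87, standard error 0.17, edgeR adjusted p 3.72e-05). For both receptors every macula densa library was above every control-cell library. Ptger3, which couples to Gi, had 2.81 (edgeR adjusted p 0.00154) and Gcgr 2.49 (edgeR adjusted p 0.00114). Lower were the vasopressin receptor Avpr2, also counted among the principal-cell markers above (-3.27, edgeR adjusted p 0.0121), the adenosine receptors Adora1 (-3.76, edgeR adjusted p 0.000347) and Adora2a, and Glp1r, Calcrl, Ramp1, Ramp2, Npr3 and S1pr1. In control-cell replicate 4 on control diet, low in both endothelium and podocyte markers, Calcrl, Npr3 and S1pr1 measured 6.72, 2.27 and 2.07 CPM. These genes were picked after their values were seen, and the part of any cell type was not tested.

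The counts in the next 3 lists stand beside the same shares of all genes, 7.48% higher and 13.9% lower. Of 11 G protein alpha subunits and regulators 10 were tested. Rgs2, which shortens G protein signals, was higher (1.10, edgeR adjusted p 0.0129), and Gnai2, Gnao1, Grk2 and Arrb1 were lower, with Gnai2, an inhibitory alpha subunit, at 12.3 to 22.4 CPM in macula densa and 18.1 to 88.9 CPM in control cells (-1.67, edgeR adjusted p 0.0126). Of 17 further effectors and transport genes 9 were tested and 1 was called, the cyclic nucleotide exporter Abcc4, at 25.7 to 29.9 CPM in macula densa and 16.8 to 21.8 CPM in control cells, without overlap (0.56, standard error 0.13, edgeR adjusted p 0.0105). Among 15 genes known as CREB targets 14 were tested, and 8 were lower in macula densa cells and none higher: Fos, Fosb, Junb, Egr1, Atf3, Dusp1, Nr4a1 and Nr4a3. Junb measured 4.31 and 5.95, then 7.47 and 10.01 CPM in the macula densa pairs, and 18.3, 14.4, 19.7 and 33.9, then 36.9, 27.2, 28.8 and 47.2 CPM in control cells (-2.03, standard error 0.27, edgeR adjusted p 0.000438). These genes are also known as immediate early genes, which many stimuli besides cyclic AMP induce. In none of these 4 lists was a gene called between the diets in either cell population, or for the difference of the diet effects.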

How the data were processed

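RNA-seq libraries of sorted mouse kidney cells, 12 in all, were grouped by their labels. The values are estimated counts per gene, deposited by the authors as 1 table of 23378 genes; 16.1% of values were not whole, and no gene summed to under 10 counts. STAR 2.61, Partek and the build mm10 are named in the submitters' processing notes; strand setting and annotation are not given in the sources used here. Every column belonged to a labelled library. 1 gene, the predicted noncoding Gm42418, took 53.5% to 65.0% of each library, which lowers the CPM of all others. Its share was 53.5% to 58.95% in macula densa cells and 58.85% to 65.0% in control cells. Mir6236 took a further 6.76% to 9.34% and 9.20% to 13.7%. Library totals, used alone as 1 alternative scaling, include both genes.

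Counts were rounded, filtered (filterByExpr, minimum count 10, total 15; 14180 genes kept), scaled by TMM and fitted over the 4 groups with edgeR 4.0.16 (quasi-likelihood test, Benjamini-Hochberg adjustment over all genes, threshold 0.05) in R 4.3.3. The averaged comparison weights both diets equally. Positions are GENCODE M21 on GRCm38, and levels per length use its merged exons. A floor of 3 counts per library served as bound for groups at 0. The code was tested on simulated data.

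The genes and lists were chosen with earlier results of these data known. Values of every library were given for Akap2 and Pakap, for up to 12 genes in each direction with the largest change among those called over both diets averaging 5 CPM or more, and for the 3 smallest p-values in each diet comparison; other genes given by library (Pde1b, Pde7b, Prkar1b, Prkar2b, Adcy4, Adcy5, Adcy6 and those outside the symbol rule) were picked after their values were seen. Akap9, Crem, Creb3, Pde6h, Pde8b and Pde9a also share exon bases with a gene on the other strand and Creb5 with one on its own, so their counts are uncertain. Adcy2, Adcy6, Akap7, Pde5a and Pde7a overlap an annotated gene on the other strand that has no row in the deposited table. Pde4dip and Pde12 overlap such a gene on their own strand. Alternatives were other scalings and filters, DESeq2 1.42.0, limma 3.58.1 voom, subsets of groups, replicate blocks and leaving out each library.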

Additional observations from a re-analysis of the deposited data

Results flagged for a closer look

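In groups of 4 control-cell libraries, 3 of 38 sets of values held a library whose gap to its nearest neighbour exceeded 0.829 of the group's range, where chance gives about 1.9. On the log2 CPM scale (prior count 2), Pde4dip was 5.47 in control-cell replicate 1 of the control diet, against 5.40 to 5.41 in the rest of its group. Pde2a was 4.14 in control-cell replicate 1 under treatment with low salt and enalapril, and 4.83 to 4.96 in the others. Prkar1a was 5.22 in control-cell replicate 3 under that treatment, and 5.82 to 5.87 in the others.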

How the results depend on the processing

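No log2 ratio recomputed for the named genes changed sign under the alternatives tried. On control diet 12 genes of the pathway were called between the cell populations, against 20 with DESeq2, 19 with limma voom and 7 when only the groups compared were fitted (of all genes 938, against 2000, 1919 and 468). Under treatment 15 were called, against 7 with limma voom (of all genes 1031 and 516). Leaving out each library gave 2 to 25 on control diet, 4 to 20 under treatment and 17 to 32 over both diets. The lowest counts came without macula densa replicate 2 of the diet concerned (over both diets, of the treatment), and the highest without control-cell replicate 4 of the control diet. Between diets 1 gene (Akap2) was called in macula densa cells by DESeq2 and by the fit of only those groups (105 of all 11321 genes in it), 1 (Pde10a) in control cells by DESeq2, and 1 (Akap2) for the difference of the diet effects by DESeq2. Akap2, Pde2a and Prkar2b were not called by limma voom over both diets, at adjusted p 0.0515, 0.0642 and 0.0636. The summed Akap2 and Pakap value over both diets kept its call throughout, at -3.15 to -2.76 without each library.

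Each macula densa library shares a number in its description with 1 control-cell library, which the labels do not explain. Correlations of deviations did not meet the rule for pairing and, with 2 macula densa libraries a group, cannot show that pairing is absent. They ran from -0.037 to 0.227 for the numbers in the descriptions and from -0.377 to 0.278 for those in the titles. A replicate block on the title numbers gave 8 calls on control diet, 7 under treatment and 22 over both diets (of all genes 378, 396 and 1908). The 8 libraries that share a description number gave 24, 22 and 33 calls with those numbers as the replicate block, and 24, 25 and 35 without it (of all genes 2217, 2192 and 3630, and 2333, 2281 and 3876). Over both diets the call of Adcy3 was lost with that block (edgeR adjusted p 0.058), and those of Pde9a and Prkaca with and without it. Without the block Akap2 was also called between diets in macula densa cells, 1 gene where 22 of all genes were. That block could not be fitted to the diet comparisons within a cell population. With 2 macula densa libraries a group and 3 counts worth 0.231 to 0.734 CPM, levels below that range rest on fewer than 3 counts.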
